A study of Mus musculus with 32 samples.

Results

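The genes described here are the clustered histone genes of the mouse: the 69 of 26630 entries of a retinal expression table whose symbol begins with Hist1h, Hist2h, Hist3h or Hist4h. By the type of histone in the symbol there were 6 H1, 19 H2a, 19 H2b, 12 H3 and 13 H4 genes. Among them Hist1h2al and Hist3h2bb-ps are transcribed pseudogenes by RefSeq. By symbol, 55 belonged to Hist1 on chromosome 13, 10 to Hist2 on chromosome 3, 3 to Hist3 on chromosome 11 and 1, Hist4h4, lay alone on chromosome 6 (GRCm38). Hist1h2al lies at chr13:51200084-51203066, apart from the other Hist1 genes.

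The study compared retinas of mice flown on the International Space Station with retinas of mice kept on the ground. Spaceflight mice were female C57 BL/6J animals that were 16 weeks old at launch and spent 37 days in flight, and ground control mice were of the same sex, strain and age and lived in the same kind of habitat on Earth. RNA sequencing is analysed here for 9 spaceflight and 7 ground control mice, and reduced representation bisulfite sequencing (RRBS), which reads cytosine methylation in CpG-rich fragments, for 8 spaceflight and 8 ground control mice, with 1 retina of 1 mouse in each library. All mice are labelled as 21 weeks old, no genetic change or drug is described for either group, and each library is whole retina, a mixture of neurons, glia and vessels.

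Nucleosomes are built from the core histones H2A, H2B, H3 and H4, around which DNA is wrapped, and the linker histone H1 binds where the DNA enters and leaves. The clustered genes supply histones mainly during S phase, when replicated DNA has to be packed, and most of their mRNAs end in a conserved stem-loop instead of a poly(A) tail. Neurons of the adult retina have left the cell cycle, and cells of that kind are known to replace histones mainly with variants encoded outside the clusters, such as H3.3 from H3f3a and H3f3b.

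The 3′ stem-loop was found for 63 of the 69 genes, between 21 and 58 bases after the stop codon (median 30). It was searched for in the genome sequence (GRCm38.p6), within 200 bases after the RefSeq stop codon. A match was a stem of 6 base pairs beginning GG and a loop of 4 bases beginning TTT. Hist1h2al and Hist3h2bb-ps, pseudogenes without an annotated coding sequence, were not searched. The sequences below are those of the genes on which the results turn, with 5 bases on either side. Capitals mark the bases of the stem.
Hist1h2be (chr13:23585526-23585551, minus strand): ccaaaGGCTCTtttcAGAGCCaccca
Hist1h2bb (chr13:23747198-23747223, plus strand): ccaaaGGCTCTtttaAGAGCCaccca
Hist1h2bf (chr13:23573760-23573785, minus strand): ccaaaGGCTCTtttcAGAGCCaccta
Hist1h1c (chr13:23739507-23739532, plus strand): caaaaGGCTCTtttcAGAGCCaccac
Hist1h3e (chr13:23561898-23561923, minus strand): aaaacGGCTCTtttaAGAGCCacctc
Hist1h4c (chr13:23698084-23698109, minus strand): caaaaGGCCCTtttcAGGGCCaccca
Hist1h4d (chr13:23581945-23581970, plus strand): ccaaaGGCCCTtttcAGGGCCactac

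The stems differed by type. The hairpin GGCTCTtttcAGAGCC was found in 41 genes and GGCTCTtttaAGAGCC in 9, none of them H4. The hairpins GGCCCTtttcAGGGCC (8 genes), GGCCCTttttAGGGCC (2 genes) and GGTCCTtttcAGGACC (Hist1h4b and Hist1h4j) were found in H4 genes only among the 69, and Hist2h2ac had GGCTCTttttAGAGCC. For the genes searched, no match says only that a hairpin of this form was not in the window. Of the 69 genes, 5 have a spliced transcript in RefSeq, all of them H2b genes. These are Hist1h2bc, Hist1h2be, Hist1h2bp, Hist1h2bq and Hist1h2br, and the spliced transcripts of Hist1h2be reach 2506 nt, against 445 nt for its unspliced form.

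The genes resemble each other closely, which bears on every level below. A median of 44.8% of the 75-base windows of a gene's transcripts occurred in another gene of the set, and the share was at least 50% for 31 of the 69. The 13 H4 genes encode 1 protein of 103 residues, and the H3 genes fall into sets of 8 and 4 with identical proteins of 136 residues. Over all 69 genes there were 30 distinct proteins. Reads from such stretches can be divided between copies by the quantification. The level of a gene such as Hist2h3c2 (100% of windows shared) or Hist1h4m (89.1%) is therefore uncertain, while Hist1h4d (11.9%) and Hist2h2bb (0%) shared little or nothing. For Hist1h2be the share was 8.54% over all its transcripts, of which the spliced ones reach 2506 nt. Its unspliced form of 445 nt was not counted separately, and Hist1h2bc (41.8%) and Hist1h2bg (66.2%) encode the same protein.

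Expression was deposited as FPKM, that is, fragment numbers divided by the transcript's length and by the library's total, which gives no read count behind a value. A value of exactly 0 need not mean absence, since Rn7sk, an abundant small nuclear RNA, was listed at 0 in 3 libraries and at 166969 to 372469 FPKM in the others. Small structured RNAs (snoRNA, snRNA and similar genes) took 28.0% to 46.2% of all FPKM in the spaceflight libraries and 24.9% to 55.9% in the ground control libraries, with the highest share in ground control mouse M40. The 4 rod markers Gnat1, Pde6b, Sag and Nrl were all detected and summed to 7372 to 15758 FPKM in spaceflight and 10146 to 16080 FPKM in ground control retinas. The 8 lens markers summed to 1.98 to 28274 FPKM in spaceflight and 5.94 to 41359 FPKM in ground control libraries, the highest in M31. The 7 corneal and basal epithelial markers summed to 1.49 to 1968 FPKM in spaceflight libraries, with the top in M21, and to 3.46 to 90.2 FPKM in ground control libraries. The part of these tissues in the results was not tested. The condition label of M21 says ground control while its source name says flight, and it was counted as spaceflight. For 6 ground control RNA libraries the mouse numbers of the labels differ from those of the study's table of libraries, which was followed.

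Clustered histone mRNA was detected in the adult retina. Of the 69 genes, 50 had a mean of at least 1 FPKM over the 16 libraries, 28 of at least 10 FPKM and 7 of at least 100 FPKM. The median over the 69 was 5.38 FPKM. Among all 26630 entries, 14322 named genes had a mean of at least 1 FPKM. A level of at least 1 FPKM in all 16 libraries was reached by 45 of the 69, and each library had 47 to 55 of them at that level. By type, 4 of 6 H1, 12 of 19 H2a, 12 of 19 H2b, 10 of 12 H3 and 12 of 13 H4 genes had a mean of at least 1 FPKM. Of the other 19 genes, 4 were listed at 0 in every library, namely Hist1h2bq, Hist1h2br, Hist1h2ad and Hist1h2ap, whose share of windows found in another gene was 100%, 100%, 70.7% and 100%.

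**Figure D1:**
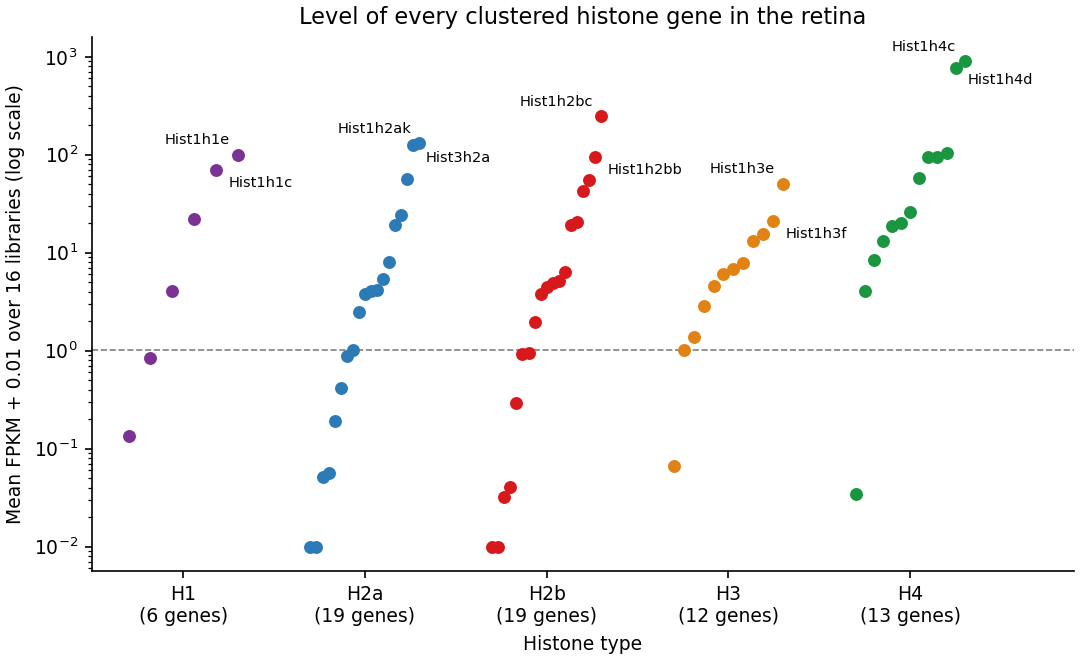
Mean FPKM plus 0.01 over the 16 RNA libraries on a log axis, 1 point for each of the 69 clustered histone genes, by histone type, with the 2 highest genes of each type named and a dashed line at 1 FPKM. Hist1h4c and Hist1h4d stand highest, and every type spans at least from below 1 FPKM to 50.5 FPKM.

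A few genes held most of the signal. Hist1h4c (mean 905 FPKM over 16 libraries) and Hist1h4d (774 FPKM) made up 50.2% of the FPKM summed over all 69 genes. Hist1h2bc (246 FPKM), Hist1h2ak (131 FPKM), Hist3h2a (126 FPKM), Hist1h4h (105 FPKM) and Hist1h1e (100.4 FPKM) followed. H4 genes held 63.5% of the sum, H2b genes 15.2%, H2a genes 11.6%, H1 genes 5.87% and H3 genes 3.91%.

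Some genes with known roles outside ordinary S phase supply lay below the median of the 69 genes, 5.38 FPKM. The testis-specific genes Hist1h1t, Hist1h2aa and Hist1h2ba, which encode the linker histone, the H2A and the H2B of maturing male germ cells, had means of 0.123, 0.402 and 0.0223 FPKM and were listed above 0 in 13, 10 and 1 of the 16 libraries. Hist2h2be, whose H2B variant is known from olfactory neurons of the mouse, had 3.78 FPKM with a narrow range of 3.07 to 4.79 FPKM. The 11 histone variants outside the clusters summed to 740 ± 47.2 FPKM in spaceflight (SD, n = 9) and 724 ± 77.8 FPKM in ground control libraries (SD, n = 7). In each library this was below the sum of the clustered genes, but H4 genes held 63.5% of the clustered FPKM and no variant listed is an H4. For H3 the order was the other way. H3f3a had 309 FPKM and H3f3b 209 FPKM, while all clustered H3 genes summed to 123 FPKM in spaceflight and 141 FPKM in ground control libraries. Of the 23 S phase and proliferation genes of a fixed list, 14 reached a mean of 1 FPKM, and the median of the list was 1.51 FPKM. Mki67, the antigen of cycling cells, averaged 0.742 FPKM and Top2a, the topoisomerase of dividing cells, 0.353 FPKM.

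The first comparison asked whether any clustered histone gene differed between spaceflight and ground control retinas. A single gene did by the criteria of the study (fold change of at least 1.2, p of 0.05 or under and adjusted p of 0.3 or under): Hist1h2be, which encodes a common H2B protein, was lower after spaceflight. No clustered gene was higher. Levels were tested with limma, using a trend of variance on level, as log2(FPKM + 0.1), a scale that understates the change of low genes. It covered the 14322 genes with a mean of at least 1 FPKM, among them 50 clustered histone genes. Over all genes, 0.0978% were called lower and 0.0489% higher, against 1 and 0 of the 50. At an unadjusted p of 0.05 or under, without a criterion on fold change, 4 clustered genes were lower and 0 higher, beside backgrounds of 4.96% and 5.88% of all genes. The groups did not overlap for 0 of the 50 genes and for 0.0838% of all genes.

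Hist1h2be levels lay between 3.06 and 4.99 FPKM in the spaceflight libraries, with a median of 4.15 FPKM, and between 4.95 and 7.10 FPKM in the ground control libraries, with a median of 5.71 FPKM. A single spaceflight library lay above the lowest ground control library, and all 9 lay below the ground control median. The mean was 4.12 ± 0.69 FPKM in spaceflight (SD, n = 9) and 6.01 ± 0.90 FPKM in ground control retinas (SD, n = 7). The log2 change was −0.54 ± 0.12 (SE, approximate 95% interval −0.77 to −0.30), with an adjusted p of 0.265 by limma with Benjamini-Hochberg adjustment. In bulk tissue, fewer cells of a type and less RNA per cell cannot be told apart. The log2 change lay between −0.58 and −0.49 when each library was left out in turn, but the adjusted p lay between 0.20 and 0.572, so that the call held in 5 of the 16 cases (without M23, M29, M31, M33 or M35) and was lost in the other 11. It was also lost with M21 counted as ground control (log2 change −0.53, adjusted p 0.676), without M21 and M40 together (−0.53, adjusted p 0.512) and after rescaling the libraries without the small structured RNAs (−0.07, adjusted p 0.755). That rescaling moved the median log2 change of all genes to 0.47, and Hist1h2be lay below that median.

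Hist1h1c, a linker histone gene now named H1f2, came next. Its levels were 46.4 to 77.6 FPKM (median 58.9) in spaceflight and 63.4 to 94.3 FPKM (median 87.0) in ground control libraries. All 9 spaceflight libraries were below the ground control median, and 2 of them reached into the range of the ground controls. The means were 59.2 ± 10.8 FPKM in spaceflight (SD, n = 9) and 81.7 ± 13.4 FPKM in ground control retinas (SD, n = 7), a log2 change of −0.47 ± 0.12 (SE) with an adjusted p of 0.354 by limma, above the threshold of 0.3. Hist1h1c passed the criteria without M31, M33, M23 or M35, with adjusted p between 0.216 and 0.288. Its log2 change was 0.0048 after rescaling without the small structured RNAs, against a median of 0.47 for all genes on that scale.

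The other pair at an unadjusted p of 0.05 or under encode H2B. Hist1h2bb levels were 56.4 to 107 FPKM (median 87.0) in spaceflight and 85.5 to 196.5 FPKM (median 101) in ground control libraries, with a log2 change of −0.50 ± 0.18 (SE) and an adjusted p of 0.393 by limma. The ground control top of Hist1h2bb is M40, and without that library the log2 change was −0.36. Hist1h2bf levels were 1.06 to 6.08 FPKM (median 3.32) in spaceflight and 3.30 to 7.37 FPKM (median 5.60) in ground control libraries, with a log2 change of −0.66 ± 0.27 (SE) and an adjusted p of 0.419 by limma. For both genes 8 of 9 spaceflight libraries lay below the ground control median and 5 of 9 within the range of the ground controls. Hist2h2bb, the fifth by p and again an H2B gene, had 30.1 to 44.2 FPKM (median 37.2) in spaceflight and 32.1 to 77.8 FPKM (median 41.5) in ground control libraries, with a log2 change of −0.28 ± 0.15 (SE) and an adjusted p of 0.513 by limma. Its ground control top is M40 as well, and the log2 change was −0.16 without M40 and −0.37 without M31.

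**Figure D2:**
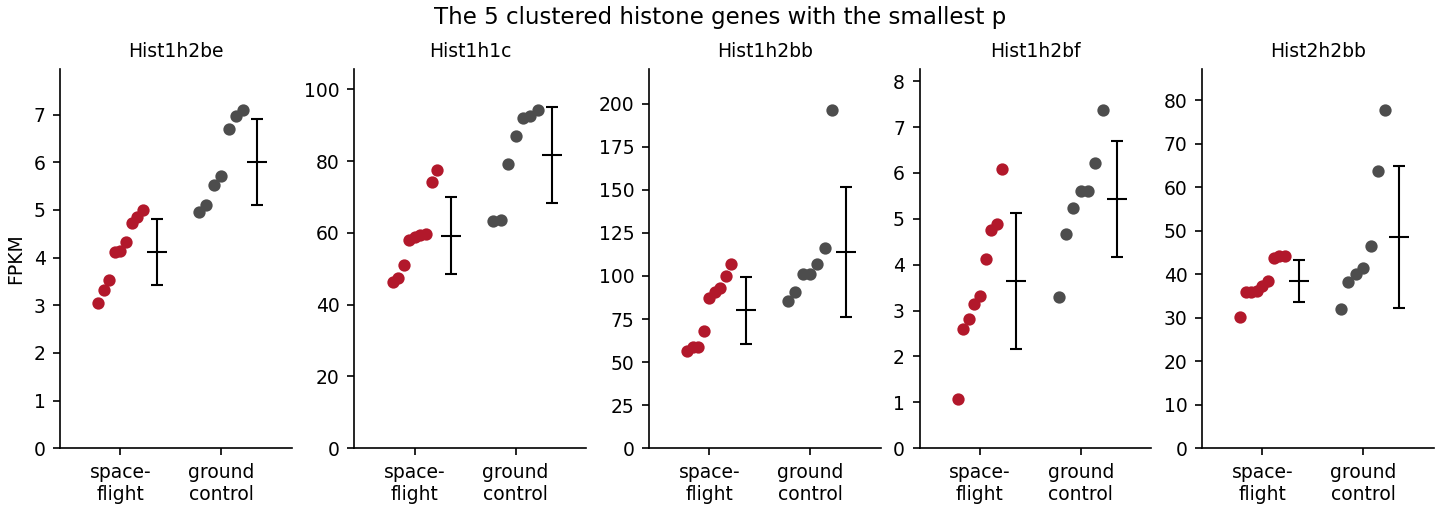
FPKM of the 5 clustered histone genes with the smallest p, 1 point for each library, spaceflight (9 libraries) left and ground control (7 libraries) right in each panel, with bars for the mean and SD. For Hist1h2be 1 spaceflight library lies above the lowest ground control library, and for Hist1h2bb the ground control library at 196.5 FPKM is M40.

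The most abundant gene of each type did not pass the test. Hist1h1e, the leading linker histone gene, had 86.6 to 112.6 FPKM (median 104) in spaceflight and 83.3 to 124 FPKM (median 96.9) in ground control libraries. Its log2 change of −0.01 had an approximate 95% interval of −0.18 to 0.16, the kind of interval given for each gene here. Hist1h2ak, the leading H2A gene, had 72.1 to 215 FPKM (median 138) in spaceflight and 74.7 to 176 FPKM (median 125) in ground control libraries, with an interval of −0.43 to 0.45. These groups overlapped over most of their range. Hist1h2bc, the leading H2B gene, had 167 to 331 FPKM (median 206) in spaceflight and 199 to 366 FPKM (median 292) in ground control libraries, a log2 change of −0.27 with an interval of −0.59 to 0.05. Hist1h3e, the leading H3 gene, had 33.6 to 57.6 FPKM (median 46.1) in spaceflight and 35.5 to 120 FPKM (median 46.9) in ground control libraries, with an interval of −0.69 to 0.14. Hist1h4c, the leading H4 gene, had 284 to 1290 FPKM (median 862) in spaceflight and 376 to 2652 FPKM (median 739) in ground control libraries, and its interval of −0.84 to 0.62 is the widest of the 5.

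The remaining tested genes had log2 changes between −0.47 (Hist2h2ab, an H2A gene) and 0.45 (Hist2h3c1, an H3 gene), with adjusted p between 0.571 and 0.998. Over all 50 genes, 39 (78.0%) had a log2 change below 0, against 50.1% of all genes tested, and their median was −0.12 against −0.00051 for all genes. Without M40 25 of 51 genes (49.0%) were below 0, against 46.7% of all genes, with a median of 0.0037. The count also depended on the scale. Rescaling the libraries without the small structured RNAs moved the median of all genes by 0.47 and left 4 of the 50 clustered genes below 0 (median 0.34), and rescaling them by other mRNAs of at most 600 nt moved the median of all genes by 0.19 and left 21 of the 50 below 0 (median 0.08). By type, on the deposited scale, the log2 change was below 0 for 4 of 4 H1 genes (median −0.11), 8 of 12 H2a genes (median −0.04), 11 of 12 H2b genes (median −0.26), 8 of 10 H3 genes (median −0.07) and 8 of 12 H4 genes (median −0.13). Without M40 the counts below 0 were 2 of 4 H1 genes (median −0.02), 6 of 12 H2a genes (median 0.0046), 10 of 12 H2b genes (median −0.09), 6 of 11 H3 genes (median −0.08) and 1 of 12 H4 genes (median 0.12).

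The number of calls depended on which ground control libraries were included. Without M31, 7 clustered genes were called lower: Hist1h1c, Hist1h2bb, Hist1h2be, Hist1h2bf, Hist2h2ab, Hist2h2bb and Hist2h3b. In that fit 645 genes of 14284 were called higher and 722 lower overall. Without M33 the clustered genes called lower were 3, beside 233 of 14357 genes overall. Without M35 they were 2, beside 199 of 14355 genes, and without M23 they were 2, beside 15 of 14350 genes. Without each of M21, M22, M24, M25, M26, M27, M30, M34, M40, M32 and M36 there were 0 called by limma, with 3 to 4 genes lower at an unadjusted p of 0.05 or under and 0 higher.

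**Figure D3:**
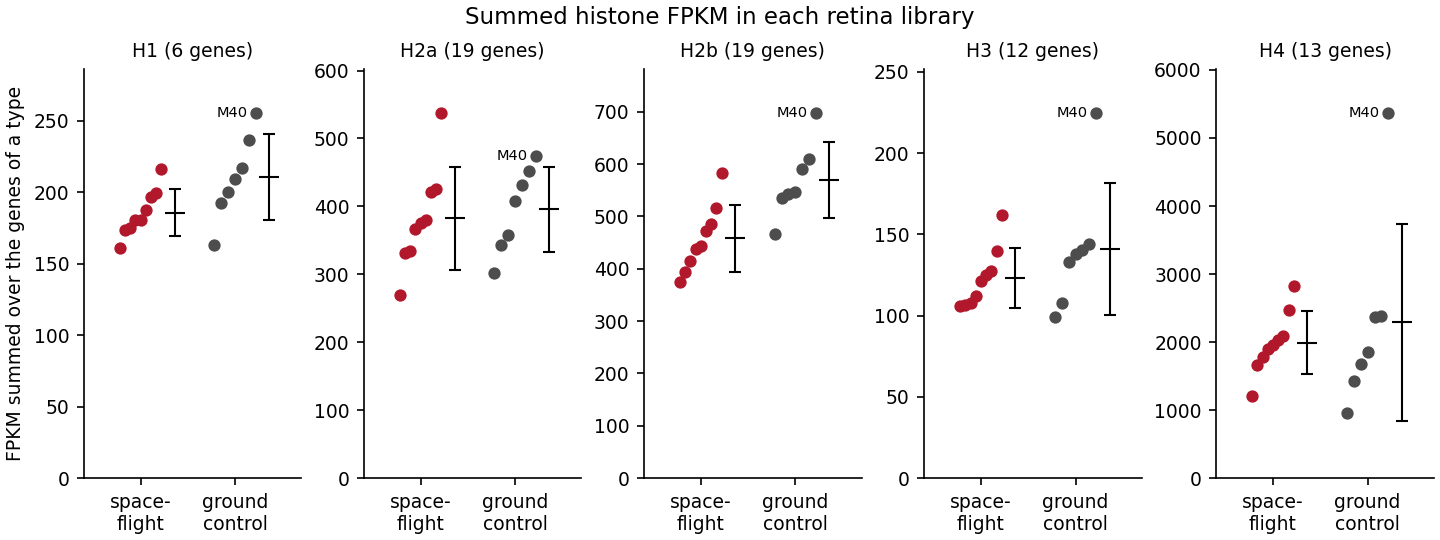
FPKM summed over the genes of each histone type, 1 point for each library, spaceflight (9 libraries) left and ground control (7 libraries) right, with bars for the mean and SD. M40 stands above all other libraries for H4, at 5366 FPKM, and for H3, at 225 FPKM.

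Summed over the genes of a type, H2b FPKM came to 375 to 582 (mean 458 ± 64.6, SD, n = 9) in spaceflight and 467 to 697 (mean 570 ± 72.3, SD, n = 7) in ground control libraries. These ranges overlapped, and the ground control mean without M40 was 549 ± 49.9 FPKM. H1 FPKM summed to 185 ± 16.4 in spaceflight and 210 ± 29.9 in ground control libraries, and H2a FPKM to 382 ± 75.5 in spaceflight and 396 ± 63.1 in ground control libraries. H3 summed to 123 ± 18.4 FPKM in spaceflight and 141 ± 40.8 FPKM in ground control libraries. H4 summed to 1992 ± 464 FPKM in spaceflight and 2290 ± 1448 FPKM in ground control libraries, and the order of these means turned without M40, when the ground controls averaged 1777 ± 555 FPKM. Over all 69 genes the sums were 3141 ± 568 FPKM in spaceflight and 3607 ± 1590 FPKM in ground control libraries (3038 ± 565 without M40). After rescaling without the small structured RNAs the log2 ratio of the mean sums was above 0 for H1 (0.33), H2a (0.41), H2b (0.19), H3 (0.26) and H4 (0.22). On that scale the median log2 change of all genes tested was 0.47. No test was run on these sums.

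A single retina set the upper end of the family. In ground control mouse M40 the 69 genes summed to 7018 FPKM, against 2169 to 4259 FPKM in the spaceflight libraries and 2255 to 3671 FPKM in the other ground control libraries. Of the 50 tested genes, 31 were highest in M40: 10 of 12 H4, 7 of 12 H2b, 6 of 10 H3, 5 of 12 H2a and 3 of 4 H1 genes. The ratio of M40 to the median of the other libraries had a median of 1.94 over the 50 genes, 3.09 over the H4 genes and up to 8.07 for Hist1h4j. The H4 mRNAs are also the shortest of the family, with a median of 407 nt against 760.5 nt for H1, and other mRNAs of at most 600 nt were high in M40 too. Relative to each gene's median over the libraries, these short mRNAs were higher in M40 by a median of 0.50 on the log2 scale, against 1.59 for H4 genes and 0.05 for all genes tested. By length, the median in M40 was 0.37 for those up to 400 nt, 0.68 for those over 400 to 500 nt and 0.40 for those over 500 to 600 nt. In M31 the short mRNAs of all lengths up to 600 nt were at 0.49, while the clustered genes were at −0.37. Of the 50 clustered genes, 15 had their lowest value in M31. M40 held the highest share of small structured RNAs (55.9%). The part of that share and of transcript length in the histone values of M40 was not tested.

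M21 stood out for a few genes only. In that spaceflight library 6 of the 50 genes were highest: Hist1h2af, Hist1h2ao, Hist1h2bj, Hist1h2bm, Hist1h3d and Hist1h3g. Hist1h2af, an H2A gene, was listed at 11.7 FPKM there and at 0 in 5 of the 9 spaceflight and 3 of the 7 ground control libraries.

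The second question was whether the clustered genes varied together between retinas. Levels were centred within each group on the log2 scale, and Pearson's r was computed for every pair of the 50 genes over the 16 libraries. The 1225 pairs had a median r of 0.26, against 0.003 for pairs of all genes tested, and 29.4% of them exceeded 0.5, against 13.1% of pairs of all genes. Other mRNAs of at most 600 nt had a median r of 0.28 among themselves, so on the deposited scale the clustered genes did not exceed short mRNAs by this measure. The clustered genes had 0.17 against 0.26 for short mRNAs without M40, and 0.44 against 0.61 after rescaling without the small structured RNAs. Rescaling by those same short mRNAs takes out the variation they share, so their own median r of 0.01 on that scale was set by the scaling. The clustered genes had 0.33 on that scale, and the 2 values cannot be compared. The libraries and their scaling are shared by all points, and no p is given.

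Within a type, the median r was 0.58 for H4 genes (66 pairs), 0.49 for H1 (6 pairs), 0.24 for H2a (66 pairs), 0.13 for H2b (66 pairs) and −0.14 for H3 genes (45 pairs). Without M40 it was 0.36 for H4, 0.39 for H1, 0.26 for H2a, 0.15 for H2b and 0.02 for H3 genes, so that neither the order of H4 and H1 nor the sign for H3 held, and without M21 the H3 median was 0.05. Rescaling without the small structured RNAs gave H3 genes a median of 0.25, and rescaling by other short mRNAs gave 0.72 for H1 and 0.57 for H4 genes. Pairs of the same type had a median of 0.33 and pairs of different types 0.24. Without M40 the median over all pairs was 0.17. The contrast with all genes also depended on the scale: the clustered genes had 0.44 against 0.65 for all genes after rescaling without the small structured RNAs, and 0.33 against 0.36 after rescaling by other short mRNAs. The share of small structured RNAs in a library had a median r of 0.27 with the 50 genes, and −0.01 without M40.

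Some pairs rose and fell together closely. Hist1h4a and Hist1h4c, both H4 genes, had r = 0.96 (0.95 without M40), and Hist1h3e with Hist1h4f r = 0.94 (0.84 without M40). Of the windows of Hist1h4a and Hist1h4c, 43.3% and 41.9% occur in another gene of the set. The linker histone genes Hist1h1d and Hist1h1e had r = 0.90 (0.88 without M40), at means of 4.03 FPKM for Hist1h1d and 100.4 FPKM for Hist1h1e. Of their windows, 15.4% (Hist1h1d) and 14.8% (Hist1h1e) occur in another gene. The part of shared reads in these r values was not tested. Hist2h3c1 and Hist2h3c2 also had r = 0.90, and at least 97.5% of the windows of each occur in another gene. The genes most like Hist1h2be were Hist1h1c (r = 0.79, 0.78 without M40), Hist1h2af (0.68), Hist1h4f (0.63), Hist1h3e (0.62) and Hist1h3f (0.60). Hist1h2af was listed at 0 in several libraries.

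**Figure D4:**
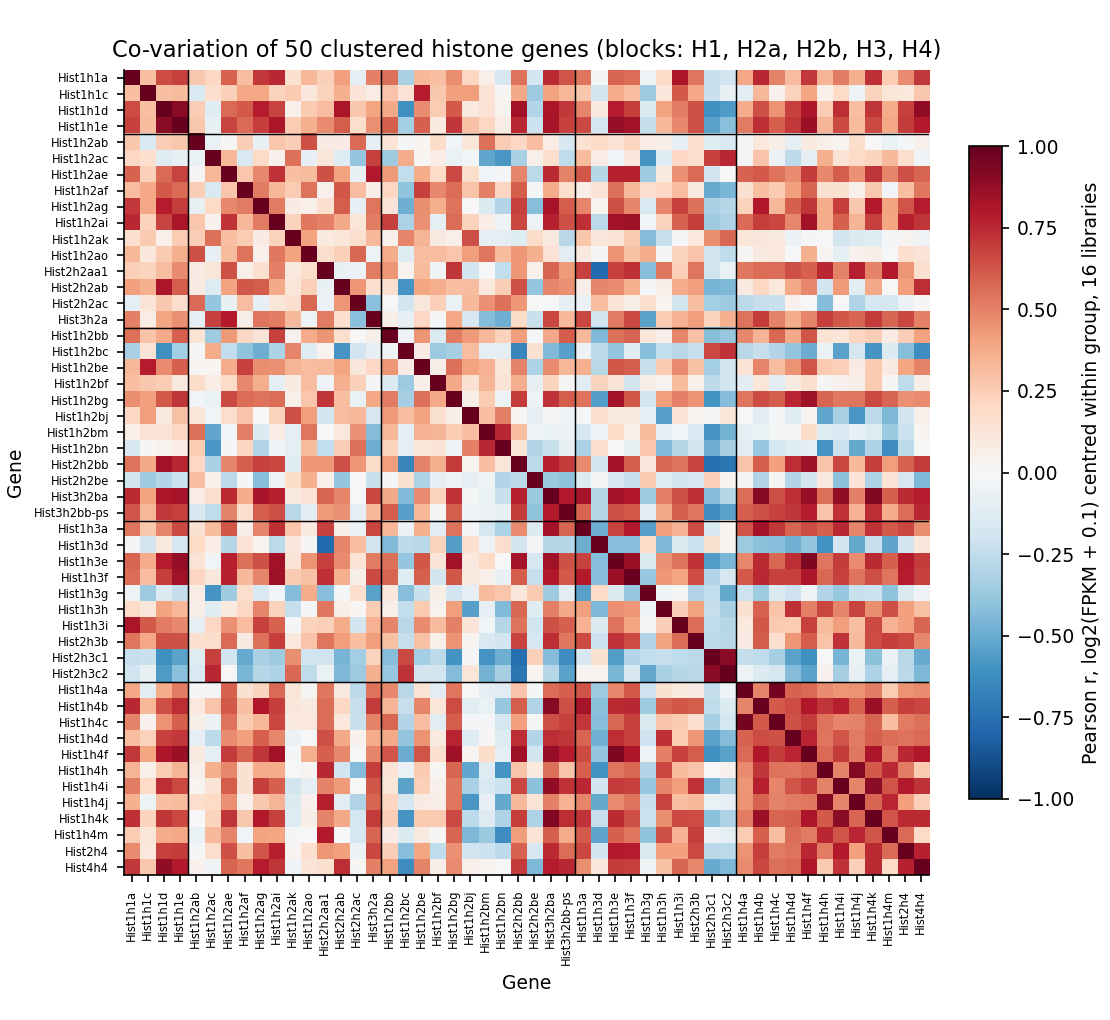
Pearson's r between the 50 tested clustered histone genes over 16 libraries, on log2(FPKM + 0.1) centred within spaceflight and within ground control, genes ordered by histone type on both axes. The H4 block has a median r of 0.58 and the H3 block of −0.14 in all 16 libraries, against 0.36 and 0.02 without M40.

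The genes also differed in how much they varied among mice of the same group. The SD within groups on the log2 scale had a median of 0.70 for H4, 0.55 for H3, 0.43 for H2a, 0.39 for H2b and 0.27 for H1 genes. Over the 50 genes the median was 0.50, against 0.26 for all genes tested. Without M40 it was 0.43 for the clustered genes and 0.56 for H4. Hist1h1e (0.16) and Hist2h2be (0.17) were among the steadiest, and Hist1h2be (0.23) was below the median of all genes.

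Neighbouring genes that share a promoter region could have very different levels. In the clusters 14 pairs of genes start 164 to 608 bp apart on opposite strands, and 13 of them join an H2a to an H2b gene. In 4 pairs both genes were listed above 0 and the mean levels differed by at least 10-fold, 1 of them the testis-specific pair, in which both levels were below 1 FPKM. In 2 further pairs 1 gene was listed at 0, and in 1 pair both were, for which no ratio is given. Hist1h2bc had 246 FPKM and Hist1h2ac, whose start lies 240 bp away, 4.09 FPKM, a ratio of 60.2. Hist1h2ak had 131 FPKM and Hist1h2bn, 164 bp away, 6.32 FPKM. In the 6 pairs with both genes tested, r between retinas had a median of 0.17 and ran from −0.09 (Hist1h2ak with Hist1h2bn) to 0.66 (Hist1h2ae with Hist1h2bg).

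Promoter sequences from RefSeq (GRCm38.p6) were available for 62 of the 69 genes and are given for the 4 genes that were lower before adjustment (Hist1h2be at the start of its unspliced form) and for the leading H4 genes, as the 150 bases before the start, read 5′ to 3′ along the gene. Capitals mark matches to a TATA box (TATAAA, or TTTATA on the other strand), a CCAAT box (CCAAT, or ATTGG on the other strand) and the octamer of histone promoters (ATTTGCAT, or ATGCAAAT on the other strand), and no matches overlap in the sequences given.
Hist1h2be (chr13:23585971-23586120, minus strand): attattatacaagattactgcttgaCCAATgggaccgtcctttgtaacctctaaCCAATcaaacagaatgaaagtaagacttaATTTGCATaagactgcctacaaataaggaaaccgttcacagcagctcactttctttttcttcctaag
Hist1h2bb (chr13:23746584-23746733, plus strand): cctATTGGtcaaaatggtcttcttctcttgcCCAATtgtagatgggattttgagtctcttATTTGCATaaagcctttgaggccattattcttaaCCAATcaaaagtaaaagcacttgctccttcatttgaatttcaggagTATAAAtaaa
Hist1h2bf (chr13:23574208-23574357, minus strand): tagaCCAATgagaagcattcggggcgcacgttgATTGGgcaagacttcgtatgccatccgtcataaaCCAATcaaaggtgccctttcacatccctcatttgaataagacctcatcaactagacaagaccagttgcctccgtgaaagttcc
Hist1h1c (chr13:23738657-23738806, plus strand): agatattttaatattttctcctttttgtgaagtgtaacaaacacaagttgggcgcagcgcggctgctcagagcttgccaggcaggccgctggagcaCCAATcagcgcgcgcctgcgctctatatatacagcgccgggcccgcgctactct
Hist1h4c (chr13:23698459-23698608, minus strand): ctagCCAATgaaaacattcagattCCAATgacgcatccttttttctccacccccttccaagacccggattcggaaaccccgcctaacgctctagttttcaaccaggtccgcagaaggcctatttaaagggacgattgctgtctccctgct
Hist1h4d (chr13:23581418-23581567, plus strand): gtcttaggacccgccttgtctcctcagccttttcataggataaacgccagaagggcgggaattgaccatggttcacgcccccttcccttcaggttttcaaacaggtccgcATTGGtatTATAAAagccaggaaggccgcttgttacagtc

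In the 250 bases before the start, CCAAT on either strand occurred in 51 of the 62 promoters (82.3%), against 33.8% of 32851 mouse promoters. It was in 6 of 6 H1, 18 of 18 H2a, 16 of 16 H2b and 8 of 10 H3 promoters, but in 3 of 12 H4 promoters. TATAAA occurred in 29 (46.8%), against 12.4% of all promoters. ATTTGCAT occurred in 14 (22.6%), against 1.60% of all promoters, and those were 7 of 18 H2a and 7 of 16 H2b promoters, with 0 among 6 H1, 10 H3 and 12 H4 promoters. A match describes these letters and not a bound factor. Where an H2a and an H2b gene start close together on opposite strands, their windows share bases. The same match can then be counted for both genes, so the H2a and H2b counts are not independent. Of the 4 genes of smallest p, Hist1h2be and Hist1h2bb showed ATTTGCAT in the 150 bases given, while Hist1h2bf and Hist1h1c did not. The promoter of the spliced form of Hist1h2be (chr13:23621095-23621244) held no ATTTGCAT, and the FPKM of a gene do not tell its starts apart.

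The third comparison was of promoter methylation, from 1 kb before to 1 kb after the start. RRBS reached 24 of the 69 genes with at least 5 CpGs at 10 reads or more in all 16 libraries, and the windows of neighbouring genes can hold the same CpGs. The other 45 genes, Hist1h2be and Hist1h1t among them, were not measured in this way. Reads covering CpG cytosines numbered 61652709 to 80242659 in a spaceflight library and 59572205 to 105298542 in a ground control library. The fewest reads in any library for a promoter of the 24 genes were 72 to 1893. Methylated and unmethylated reads of each promoter were compared by logistic regression with an overdispersion factor, for 17588 promoters. A call needed 10 points or more between the groups and a quasi-binomial F-test that passed 0.05 after Benjamini-Hochberg adjustment, which 0% of the promoters reached, while 5.56% passed 0.05 before adjustment. Among the 24 clustered genes 0 were called, 0 passed 0.05 before adjustment, and the lowest adjusted p was 0.895 by that test.

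Most of the measured promoters were nearly free of methylation in both groups. The mean level over 16 libraries was below 5% in 16 genes and below 10% in 18, with a median of 0.50% over the 24. Hist1h2bc, the leading H2B gene, shares its 6 CpGs with Hist1h2ac and had 0.197 ± 0.302% in spaceflight and 0.259 ± 0.281% in ground control retinas (SD, n = 8 each). Hist1h1c had 0.490 ± 0.208% in spaceflight and 0.239 ± 0.138% in ground control retinas, with an adjusted p of 0.895. Hist1h1e had 0.424 ± 0.0926% in spaceflight and 0.328 ± 0.109% in ground control retinas. The 2 groups overlapped for each of these promoters.

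The highest methylation was that of the testis-specific pair. Hist1h2aa and Hist1h2ba, which start 281 bp apart on opposite strands, share a window of 20 CpGs and had 97.2 ± 0.69% in spaceflight and 97.0 ± 0.36% in ground control retinas (SD, n = 8 each; difference 0.13 points, adjusted p 0.969 by the same F-test). The difference ran from 0.036 to 0.342 points when each library was left out in turn. Of the 20 CpGs, 12 lay within the leading 227 bases of Hist1h2ba and 8 at 121 to 238 bases into Hist1h2aa, and none lay in the stretch between the starts. Single CpGs ranged from 92.2% to 98.5% over both groups. The bases before the start of Hist1h2aa, shown here because the other 22 genes were all below 50%, hold the TATA box, the octamer and 3 CCAAT boxes.
Hist1h2aa (chr13:23934287-23934436, plus strand): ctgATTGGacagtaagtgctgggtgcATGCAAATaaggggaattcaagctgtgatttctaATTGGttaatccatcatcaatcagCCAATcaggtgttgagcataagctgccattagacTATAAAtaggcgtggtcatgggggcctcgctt

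The 4 other genes above 10% had intermediate levels. Hist1h2al, a transcribed pseudogene by RefSeq, had 30.6 ± 5.82% in spaceflight and 36.3 ± 6.77% in ground control retinas, a difference of −4.42 points in the pooled reads with an adjusted p of 0.915 by the same F-test. Hist1h3d had 24.9 ± 2.74% in spaceflight and 23.8 ± 2.96% in ground control retinas. Hist2h2ac and Hist2h2be, which share 14 CpGs, had 23.7 ± 2.39% in spaceflight and 24.1 ± 3.22% in ground control retinas. The group ranges overlapped for each of these genes. The 18 genes below 10% had mean levels of 0.830 to 246 FPKM, 17 of them at 1 FPKM or more, and the 6 genes above had 0.0223 to 24.5 FPKM, 3 of them at 1 FPKM or more. These are levels across genes, which are not replicates.

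**Figure D5:**
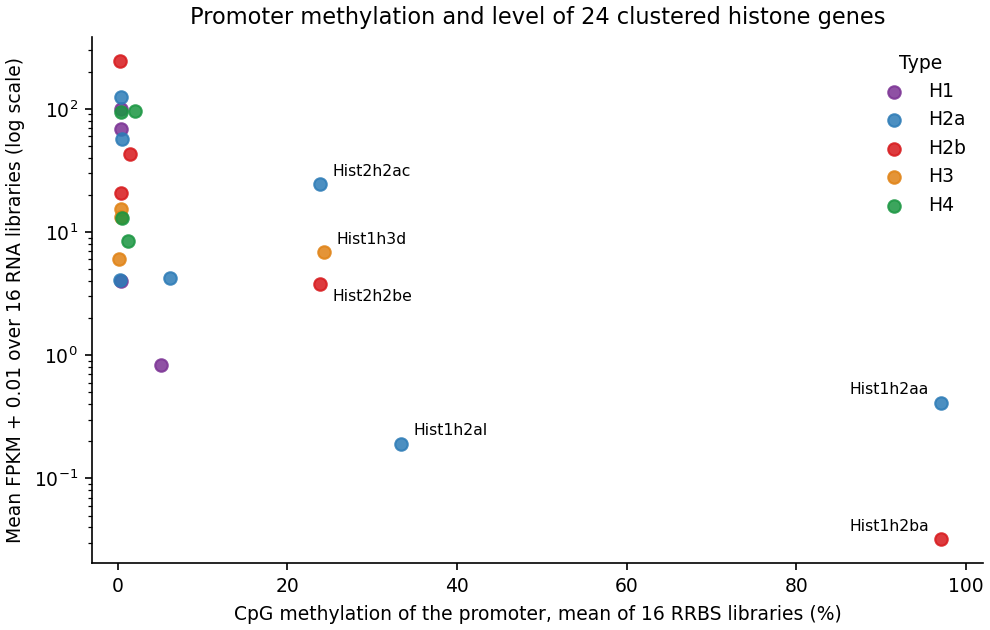
Promoter methylation (horizontal, percent, mean of 16 RRBS libraries) and level (vertical, mean FPKM plus 0.01 over 16 RNA libraries, log axis) of the 24 clustered histone genes with at least 5 measured CpGs, coloured by type. The 18 genes below 10% stand on the left and span 0.830 to 246 FPKM, and Hist1h2aa and Hist1h2ba stand alone on the right at 97.1%.

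Genes that make, process or handle histones were then set beside the clusters, from lists fixed by function. Of the 10 tested variants outside the clusters 0 were called, and 1, H2afj, was lower at an unadjusted p of 0.05 or under (19.7 ± 2.94 FPKM in spaceflight, 24.1 ± 4.62 FPKM in ground control, log2 change −0.28, adjusted p 0.418 by limma). Of the 12 tested genes for histone gene transcription and mRNA 3′ processing 0 were called. Slbp, which binds the stem-loop, had 14.6 ± 0.96 FPKM in spaceflight and 15.3 ± 1.96 FPKM in ground control retinas, and Npat, the coactivator of the clusters, had 11.3 ± 0.70 FPKM in spaceflight and 10.7 ± 0.77 FPKM in ground control retinas. Sympk, a scaffold of the cleavage complex, was the 1 gene of that list at an unadjusted p of 0.05 or under (log2 change −0.18, adjusted p 0.418 by limma). Over all genes tested, 4.96% were lower and 5.88% higher at that unadjusted cutoff.

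Of the 16 tested histone chaperones and carriers 0 were called, and Ipo4, which imports histones into the nucleus, was the 1 gene at an unadjusted p of 0.05 or under (11.9 ± 0.57 FPKM in spaceflight, 13.7 ± 1.55 FPKM in ground control, log2 change −0.19, adjusted p 0.385 by limma). Among all genes tested, 4.96% were lower at that cutoff. Of the 14 tested S phase genes 0 were called. Against 5.88% of all genes, 3 of the 14 were higher at an unadjusted p of 0.05 or under. They were Ccna2, cyclin A2 (11.2 ± 3.08 FPKM in spaceflight, 7.78 ± 1.50 FPKM in ground control, log2 change 0.49, adjusted p 0.369 by limma), Mcm7, a subunit of the replicative helicase (log2 change 0.25, adjusted p 0.369 by limma), and Tyms, thymidylate synthase (log2 change 0.44, adjusted p 0.435 by limma). The list medians of the log2 change were −0.06 for variants, 0.04 for transcription and processing, −0.05 for chaperones and 0.10 for S phase genes, against −0.12 for the clustered genes.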

How the data were processed

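For RNA, the authors trimmed reads with Trimmomatic, aligned them with TopHat2 to GRCm38 and deposited Cufflinks FPKM; rRNA-depleted, stranded libraries are described in the labels. The authors' test, Cuffdiff on reads, cannot be repeated from FPKM. For RRBS, the authors trimmed with Trim Galore 0.4.5, aligned with Bismark and deposited a read count and the percent methylated for each cytosine. Columns were matched to mice by the study's table of libraries; 2 columns were not used, and 1 row without a gene name (up to 0.388% of a library's FPKM) was left out.

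The clustered histone genes and all gene lists were chosen with earlier results of these data known. FPKM were compared as log2(FPKM + 0.1) with limma 3.58.1 (R 4.3.3), two-sided, for genes with a mean of at least 1 FPKM, and p-values were adjusted by Benjamini-Hochberg over 14322 genes. Strands of each CpG were added, and 1071573 CpGs were kept, each covered by 10 reads or more in every library. Promoter reads were fitted by quasi-binomial regression in Python 3.11.15 (numpy 2.4.6, pandas 2.3.3, scipy 1.17.1). Both procedures were tested on simulated data. Values were printed for Hist1h2be, the highest gene of each type, the 5 smallest p, called genes, and for promoters the testis-specific genes and the 5 highest levels. Alternatives were pseudocounts of 1 and 0.01, other filters on low values, rescaled libraries, the share of small structured RNAs as a covariate, limma without trend, M21 as ground control, 200 bp windows, coverage of 5 or 20 reads and each library left out. Leaving out M21 and M40 together and rescaling by other mRNAs of at most 600 nt were added after seeing the data. FPKM give no read depth. Each library is 1 mouse, so p-values measure the spread between mice.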

Additional observations from a re-analysis of the deposited data

Results flagged for a closer look

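In 42 groups of 7 to 9 libraries the highest or lowest library was compared with the rest by the size of its gap, a test that picks out about 5% of groups by chance, here 2.1. It picked out 7, of which 6 were ground control mouse M40. The groups are not independent, since the sums contain single genes that were also compared and Hist1h2aa and Hist1h2ba share their CpGs. The count of 7 therefore cannot be weighed against 2.1. In M40 the FPKM sums were 225 for H3 genes (next ground control library 144), 5366 for H4 genes (next ground control 2384) and 7018 for all 69 genes (next ground control 3671). The single genes with a separate M40 value were Hist1h2bb at 196.5 FPKM (next ground control 116), Hist1h3e at 120 FPKM (next ground control 66.7) and Hist1h4c at 2652 FPKM (next ground control 1183). The remaining 1 was a low value in a spaceflight mouse, M27, whose Hist1h2al promoter was 17.5% methylated (next spaceflight library 29.4%). These values are given without an explanation.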

How the results depend on the processing

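No paired analysis was possible because replicate numbers are given in accession order and do not pair the groups. Rescaling the libraries without small structured RNAs moved the median log2 change of all genes to 0.47. It gave 0 clustered genes called lower and 6 of 50 higher, beside 6434 of 14322 genes called higher among all tested. It gave a median log2 change of 0.34 over the 50 clustered genes, log2 ratios of the type sums of 0.33 (H1), 0.41 (H2a), 0.19 (H2b), 0.26 (H3), 0.22 (H4) and 0.25 (all), calls of 3 variants, 7 transcription and processing genes, 8 chaperones and 6 S phase genes, a median r of 0.44 (0.65 for all genes) and positive log2 changes for Hist1h1c (0.0048), Hist2h2bb (0.19), Hist1h1e (0.47), Hist1h2bc (0.20), Hist1h3e (0.20) and Hist1h4c (0.36). In that scale Rny3, Rny1, Bc1 and TrnM held 22.2% to 69.8% of the remaining FPKM. Rescaling by other short mRNAs called 2377 of 14322 genes higher, with 0 of the 50 clustered genes among them. It gave 2, 2, 2 and 4 calls in the same lists, ratios of −0.0071 (H1), 0.15 (H2a), −0.12 (H2b), 0.0090 (H3), 0.05 (H4) and 0.03 (all), a median r of 0.33 (0.36 for all genes) and changes of 0.19 (Hist1h1e) and 0.085 (Hist1h4c). The median-ratio scaling gave a median r of 0.22 and 0.0027 for Hist1h1e. With no filter, with M21 as ground control, or without M21 and M40 together, 0 clustered genes were called lower, and with the share of small structured RNAs as a covariate 2 were. Hist1h2ak was −0.025 with that covariate, −0.10 with M21 as ground control and −0.088 without M21 and M40. That last setting gave 0.033 for Hist1h1e, 0.18 for Hist1h4c, and a median r of 0.19 over all pairs and 0.36 over H4 pairs.

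With each library left out in turn, the count called lower ran from 0 to 7, the median log2 change from −0.19 to 0.0037, the S phase calls from 0 to 2, the median r from 0.17 to 0.29 and the H4 median r from 0.36 to 0.69. The log2 ratios of the sums ran from −0.24 to −0.13 (H1), −0.12 to 0.0031 (H2a), −0.37 to −0.26 (H2b), −0.27 to −0.05 (H3), −0.33 to 0.17 (H4) and −0.29 to 0.05 (all), and the log2 changes from −0.051 to 0.045 (Hist1h1e), −0.11 to 0.11 (Hist1h2ak) and −0.30 to 0.17 (Hist1h4c). The log2 change of Hist2h2bb ran from −0.37 to −0.16, and the promoter difference of Hist2h2ac from −1.22 to 0.11 points. With 200 bp windows the difference of Hist1h2aa was −0.59 points. The causes were not tested. FPKM give no depth, so no limit of detection can be stated for the 19 genes below 1 FPKM.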
